A study of Mus musculus with 8 samples.

Results

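Peroxisomes are small organelles bounded by one membrane that shorten very-long-chain and branched fatty acids, build the first intermediates of ether lipids such as plasmalogens, and handle hydrogen peroxide. Their proteins are made in the cytosol and brought in by the peroxins (PEX proteins), and mutations in several PEX genes cause Zellweger spectrum disorders, in which brain development and myelin are affected. Here, 35 genes of this system were followed in the mouse cerebral cortex. They comprise peroxins with the PEX5-related Pex5l, ABC transporters and other membrane proteins, and enzymes of fatty acid oxidation and ether lipid synthesis. They were chosen by symbol, all 35 were found among the 55416 genes of the count table, and all 35 had an adjusted p in the comparison.

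The cortex came from mice heterozygous for a knock-in that changes a leucine of Argonaute 2 to proline (genotype AGO2_L192P/+, called L192P). It was compared with wild-type cortex (WT), and each genotype had 4 libraries. Argonaute 2 carries a microRNA (miRNA) to matching sites in mRNAs and lowers their output. The allele was made by CRISPR in C57BL/6JUke zygotes, founders were crossed to wild-type mice, and every cell of an L192P animal keeps 1 wild-type Ago2 allele. The labels give neither age nor sex, and they do not say that each library is a separate animal, so p-values measure the spread between these libraries. In bulk tissue, fewer cells of a type and less RNA per cell cannot be told apart.

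The libraries held between 20396357 and 43575900 counts. Ago2 itself had 2222 to 2398 normalized counts in L192P and 2083 to 2380 in WT (log2 fold change 0.03, standard error 0.06, DESeq2 adjusted p = 0.968). Normalized counts are counts divided by a size factor per library. Over all genes, 253 of 18627 tested (1.36%) passed an adjusted p under 0.05 in DESeq2, 147 higher and 106 lower in L192P. With the replicate number as a block the balance turned, to 228 higher and 305 lower of 533 called, and with total counts as size factors it was 168 higher and 64 lower. The replicate 1 libraries of both genotypes stood apart from the other 6. Xist, the RNA of the inactive X chromosome, was at 0.934 and 1.82 normalized counts in them and between 5185 and 7257 in the others, so the Pex19 result is also given without them. The markers of 14 cell types and regions were all detected, with excitatory neuron markers summing to 80972 to 101254 normalized counts per library. The summed levels of L192P and WT overlapped for each of the 14 lists. Of the 69 markers, 3 were called, and Gad2, Avp and Oxt were all higher in L192P. With the replicate block 11 were called, 5 higher and 6 lower.

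Argonaute 2 finds its targets through the seed of the miRNA, bases 2 to 8. The mature sequences of 3 of the 9 miRNAs searched are shown with the seed in capitals, and some of their sites are printed after them.
miR-92a-3p: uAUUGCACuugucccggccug
miR-29a-3p: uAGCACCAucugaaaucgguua
miR-128-3p: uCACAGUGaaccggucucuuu
Matches to bases 2 to 8 were looked for in the 3′ untranslated region (UTR) of the canonical transcript of each gene. Each site is printed as 23 bases of the mRNA strand, with the 7 matching bases in capitals and their GRCm39 position. The sites printed are examples for miR-29a-3p, found in 5 members, and miR-128-3p, found in 12. The genes printed had fold changes below 0. Members above 0 held such sites too, among them Ehhadh and Pex7 for miR-29a-3p and Pex2 and Pex14 for miR-128-3p. A link between sites and fold changes was not tested. The Pex10 site for miR-92a-3p lies at chr4:155157082-155157088 on the plus strand, the 2 Far1 sites for the same miRNA at chr7:113167830-113167836 and chr7:113169289-113169295 on the plus strand, the Pex5 site for miR-29a-3p at chr6:124374661-124374667 on the minus strand, and the 2 Gnpat sites for miR-128-3p at chr8:125616254-125616260 and chr8:125616488-125616494 on the plus strand.
Pex10, miR-92a-3p: ccacacatGTGCAATggcttgtg
Far1, miR-92a-3p, first site: aatattcaGTGCAATggaaaatg
Far1, miR-92a-3p, second site: agaatcagGTGCAATgtgggcag
Pex5, miR-29a-3p: ccctttctTGGTGCTgcttcttg
Gnpat, miR-128-3p, first site: attcgtggCACTGTGttgtcaaa
Gnpat, miR-128-3p, second site: actaagaaCACTGTGtgttgggt
The 993-base 3′ UTR of Pex19 held no 7-base match to any of the 9 seeds. They were those of miR-92a-3p, miR-29a-3p, let-7a-5p, miR-9-5p, miR-26a-5p, miR-128-3p, miR-30a-5p, miR-138-5p and miR-181a-5p, and miR-124-3p was not searched.

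Of the 35 genes, 1 was called lower in L192P, Pex19, and 0 were called higher in DESeq2 (0.569% of tested genes were called lower and 0.789% higher). Pex19 was again the 1 member called, and lower, by edgeR, by limma-voom and with the replicate number as a block in DESeq2, which called 0.0533%, 0.0415% and 2.43% of their tested genes lower. An unadjusted p under 0.05 was reached by 3 of the 35, Pex19, Pex5l and Pex10, all lower in L192P, where 9.44% of all tested genes reached it. The fold change was below 0 for 23 members and above 0 for 12, and 49.4% of tested genes were below 0. The median log2 fold change was -0.022 over the members and 0.0019 over all tested genes, and the median size without regard to sign was 0.05 and 0.11. With total-count size factors the members' median was 0.0029 and that of all genes 0.026. All 4 same-numbered pairs were lower in L192P for 9 members and higher for 2, beside 11.4% and 12.3% of tested genes. For 33 members the 95% interval of the fold change lay within 1.5-fold in either direction. The same held for 12035 of the 18627 tested genes. All 12035 were among the 17136 tested genes averaging 10 or more normalized counts, a level that every member reached. The plot of fold changes by role shows the intervals of the members.

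**Figure D1:**
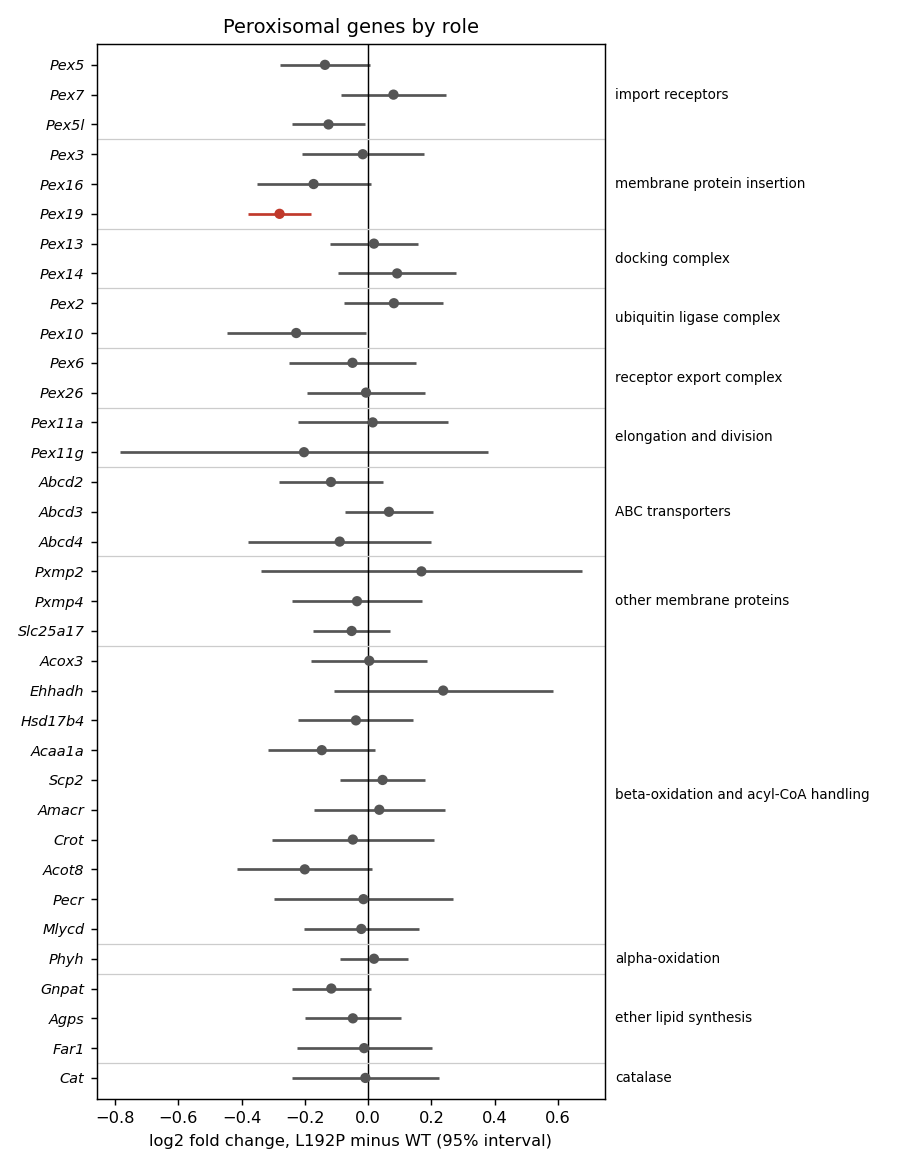
Log2 fold change (L192P minus WT, horizontal axis) of each of the 35 genes from DESeq2, with 95% intervals and 4 libraries per genotype, grouped by role. Pex19, in red, is the gene with an adjusted p under 0.05. The widest intervals belong to Pex11g and Pxmp2, which have the lowest counts.

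PEX19 is the cytosolic chaperone and receptor that picks up newly made peroxisomal membrane proteins and hands them to PEX3 at the membrane, where PEX16 helps to recruit PEX3. Pex19 (ENSMUSG00000003464, GRCm39 chromosome 1, 171954285 to 171967307, plus strand) had 1919, 1900.4, 1893 and 1897 normalized counts in L192P replicates 1 to 4. In WT replicates 1 to 4 it had 2299, 2322, 2327 and 2292. The 2 groups were far apart: the highest L192P library was below the lowest WT library, and replicate 1 lay with the other libraries of its genotype. The means were 1903 ± 11.3 and 2310 ± 17.0 normalized counts (SD, n = 4), so Pex19 fell by 17.6%. On the log2 scale this was -0.28 (standard error 0.05, 95% interval -0.38 to -0.18, DESeq2 adjusted p = 2.65e-05). The edgeR adjusted p was 0.0327. An exact two-sided permutation test on the normalized counts gave p = 0.0286, the smallest it can give with 70 ways to divide 8 libraries. That test ignores the pairing of same-numbered libraries, and an exact two-sided sign-flip permutation over the 4 pairs gave p = 0.125, the smallest its 16 sign patterns allow. Within same-numbered pairs the log2 difference was -0.26, -0.29, -0.30 and -0.27. By adjusted p, Pex19 was 29th of the 253 called genes and 4th of the 106 lower ones, whereas by size of change it was 64th of those 106, whose median log2 fold change was -0.29. In all 18 alternative fits Pex19 was called lower, and with both replicate 1 libraries left out its log2 fold change was -0.29 (DESeq2 adjusted p = 0.00102). No exon of another annotated gene overlaps it. Median log2 fold changes were below 0 for oligodendrocyte (-0.118), astrocyte (-0.0657) and oligodendrocyte precursor markers (-0.0615). Of the markers in these lists, 0 had an unadjusted p under 0.05 in DESeq2. In 2 further lists, the markers at such a p were lower, as Pex19 was. All lists not named in this paragraph had medians above 0. Excitatory neuron markers had a median log2 fold change of -0.19, with 3 of 6 at an unadjusted p under 0.05, all lower, and sums of 80972 to 86660 normalized counts in L192P and 81009 to 101254 in WT. Striatal markers had a median of -0.21, with 3 of 5, all lower, and sums of 16376 to 20563 and 20290.0 to 23961. None of these markers was called by DESeq2 without the block, and with it Slc17a7, Tbr1 and Neurod6 of the first list and Drd2, Ppp1r1b and Adora2a of the second were called lower. No defining marker of either list was near 0, and their part in the Pex19 difference was not tested.

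The spread of Pex19 within a genotype was narrow. Its coefficient of variation was 0.596% in L192P and 0.736% in WT. The medians were 6.77% and 7.01% over the 34 members, Pex19 included, that averaged 50 or more normalized counts. Over all 13422 such genes the medians were 8.04% and 8.01%. Raw Pex19 counts ran from 1584 to 4111 per library, for which counting error alone gives between 1.56% and 2.51%. The 4 values of each genotype thus lay closer together than counting error on its own would place them on average. The DESeq2 standard error of Pex19, 0.05 on the log2 scale, was the smallest among the members.

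The partners of PEX19 did not pass. Pex3, which encodes its docking factor in the membrane (ENSMUSG00000019809), had 566, 577, 552 and 577 normalized counts in L192P and 579, 500.5, 667 and 561 in WT. The ranges overlapped, with the WT libraries spread wider, and the log2 fold change was -0.02 (standard error 0.10, DESeq2 adjusted p = 0.993). Pex16 (ENSMUSG00000027222) had 462, 487, 507 and 511 in L192P and 555, 591, 576 and 487 in WT. WT replicate 4 lay inside the L192P range and the other 3 WT libraries above it (log2 fold change -0.17, standard error 0.09, DESeq2 adjusted p = 0.562). Exons of Adat2 overlap Pex3 and exons of Large2 overlap Pex16 on the opposite strand, and whether reads were counted by strand is not given in the sources used here, so both counts are uncertain to that extent. Exons of another annotated gene overlap 22 of the 35 members on the opposite strand and 3 on the same strand, Crot, Gnpat and Phyh, of which Phyh has no opposite-strand overlap. The 95% intervals ran from -0.21 to 0.18 for Pex3 and from -0.35 to 0.01 for Pex16, so a difference as large as that of Pex19 lay inside the interval of Pex16 and outside that of Pex3.

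**Figure D2:**
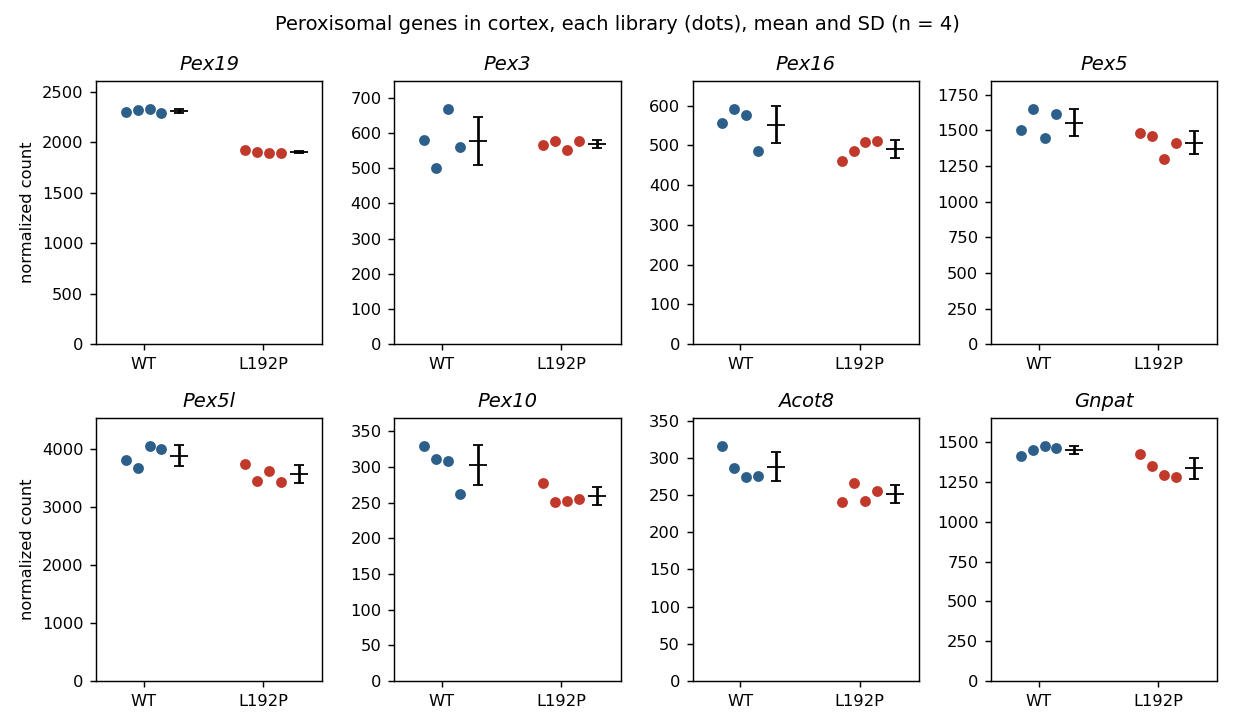
Normalized counts (vertical axis, from 0) of 8 genes in each WT (blue) and L192P (red) library, in the order of replicate number, with the mean and SD of the 4 libraries in black. For Pex19 and Acot8 the 2 genotypes do not overlap, and for the other 6 they do.

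The 3 import receptor genes encode proteins that carry matrix proteins or resemble such carriers. PEX5 binds enzymes that end in a C-terminal targeting signal, PEX7 binds the few with an N-terminal one, and PEX5L (TRIP8b) is a PEX5 relative of the brain best known for controlling HCN channels. Pex5 (ENSMUSG00000005069) had 1481, 1460.0, 1299 and 1414 normalized counts in L192P and 1504, 1647, 1446 and 1616 in WT, lower in L192P in all 4 same-numbered pairs but with overlapping ranges (log2 fold change -0.14, standard error 0.07, DESeq2 adjusted p = 0.56). Pex5l (ENSMUSG00000027674, chromosome 3, 33002537 to 33197396, minus strand) had 3746, 3440.1, 3623 and 3421 in L192P and 3808, 3675, 4050 and 4005 in WT. L192P replicate 1 was above WT replicate 2, and the other 3 L192P libraries were below all WT libraries. The difference was -0.13 on the log2 scale (standard error 0.06, unadjusted p = 0.0347, DESeq2 adjusted p = 0.454). Pex7 (ENSMUSG00000020003) had 821, 709, 680.3 and 740.3 in L192P and 740.3, 663, 702 and 693 in WT, with the highest value in L192P replicate 1 (log2 fold change 0.08, standard error 0.08, DESeq2 adjusted p = 0.892).

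PEX13 and PEX14 form the docking site through which loaded receptors pass. Pex14 (ENSMUSG00000028975) had 713, 853, 789 and 673 normalized counts in L192P and 686, 785, 688 and 677 in WT, with replicate 2 the highest of both genotypes (log2 fold change 0.09, standard error 0.10, DESeq2 adjusted p = 0.885). Pex13 ranged from 863 to 956 normalized counts over the 8 libraries, with a log2 fold change of 0.02. PEX2 and PEX10 are RING proteins of the ubiquitin ligase that marks PEX5 for recycling. Pex10 (ENSMUSG00000029047, chromosome 4, 155151427 to 155157603, plus strand) was at 251 to 277 normalized counts in L192P and 262 to 330 in WT, and WT replicate 4 was the one WT library within the L192P range (log2 fold change -0.23, standard error 0.11, unadjusted p = 0.0419, DESeq2 adjusted p = 0.494). Pex2 was at 654 to 728 and 629 to 699 normalized counts and was higher in L192P in all 4 pairs (log2 fold change 0.08, DESeq2 adjusted p = 0.875). The receptor is then pulled out of the membrane by the ATPase PEX6, which PEX26 anchors, and their genes had log2 fold changes of -0.05 and -0.01. Pex11a and Pex11g, which take part in elongation and division of the organelle, had 0.01 and -0.20. Pex11g had 26.9 to 45.5 normalized counts per library, and its 95% interval, from -0.78 to 0.38, was the widest of the members.

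The ABC transporters of this family bring acyl-CoA esters across the membrane, ABCD2 very-long-chain ones and ABCD3 branched and dicarboxylic ones, while ABCD4 is known for cobalamin transport in lysosomes. Abcd2 (ENSMUSG00000055782) had 1126, 1115, 1061 and 1316 normalized counts in L192P and 1185, 1227, 1235 and 1366 in WT, lower in L192P in all 4 pairs with overlapping ranges (log2 fold change -0.12, standard error 0.08, DESeq2 adjusted p = 0.76). Abcd3 (ENSMUSG00000028127) had 1686, 1957, 1979 and 1980.1 in L192P and 1724, 1807, 1853 and 1878 in WT. Replicate 1 was the lowest library of either genotype, and the other 3 L192P libraries were above all WT libraries (log2 fold change 0.07, standard error 0.07, DESeq2 adjusted p = 0.895). Abcd4 ranged from 191 to 277, with L192P replicate 3 far above the other L192P libraries (log2 fold change -0.09, DESeq2 adjusted p = 0.95). Of the other membrane proteins, Slc25a17, the carrier of coenzyme A and related cofactors, ranged from 1077 to 1171 normalized counts (log2 fold change -0.05), Pxmp4 from 362 to 460 (-0.04) and Pxmp2, at 39.2 to 79.7, had the second widest interval (log2 fold change 0.17, 95% interval -0.34 to 0.67).

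The 10 genes of the next group serve beta-oxidation or other handling of acyl-CoAs, 6 with a fold change below 0 and 4 above. Of these, 0 were called in DESeq2, edgeR or limma-voom, with 0 at an unadjusted p under 0.05 in DESeq2. Acot8, a thioesterase that releases fatty acids from CoA (ENSMUSG00000017307, chromosome 2, 164631348 to 164647353, minus strand), had 241, 266, 242 and 255 normalized counts in L192P and 316, 287, 274 and 275 in WT. All L192P libraries were below all WT libraries, yet Acot8 was not called (log2 fold change -0.20, standard error 0.11, DESeq2 adjusted p = 0.574). The exact two-sided permutation p was 0.0286 for Acot8 as for Pex19, and 0.125 over the 4 pairs. Any gene whose groups do not overlap gets these same values, so they add no support beyond the lack of overlap. The counts of Acot8 are uncertain to the extent of Snx21 and Zswim3, whose exons overlap it on the opposite strand. Acot8 and Pex19 were the 2 members whose genotypes did not overlap, both lower in L192P, beside 2.96% of all tested genes in that direction and 5.97% in either.

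Hsd17b4, the D-bifunctional enzyme of the hydration and dehydrogenation steps (ENSMUSG00000024507), had 1377, 1710.4, 1682 and 1671 normalized counts in L192P and 1418, 1751, 1713 and 1730.3 in WT. Both replicate 1 libraries lay below the other 6, and the log2 fold change was -0.04 (standard error 0.09, DESeq2 adjusted p = 0.975). Scp2, a sterol carrier and thiolase (ENSMUSG00000028603), had 2419, 2784, 2582 and 2781 in L192P and 2458, 2486, 2748 and 2546 in WT, with overlapping ranges (log2 fold change 0.05, standard error 0.07, DESeq2 adjusted p = 0.942). Ehhadh, the L-bifunctional enzyme, had the largest fold change above 0 among the members (log2 0.24, standard error 0.18, DESeq2 adjusted p = 0.779) and was higher in L192P in all 4 pairs, at 108 to 156 normalized counts against 104 to 138. Acaa1a, the 3-ketoacyl-CoA thiolase, was lower in L192P in all 4 pairs (log2 fold change -0.15, DESeq2 adjusted p = 0.644). Its WT replicate 2 stood above the other WT libraries. The remaining 5, Acox3, Amacr, Crot, Pecr and Mlycd, had log2 fold changes between -0.05 and 0.04 with DESeq2 adjusted p-values of at least 0.98.

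In alpha-oxidation, Phyh encodes phytanoyl-CoA hydroxylase, the enzyme of the first step on branched chains (ENSMUSG00000026664). It had 2023, 1936, 1922 and 2033 normalized counts in L192P and 1986, 1975, 1942 and 1907 in WT, a narrow overlapping range (log2 fold change 0.02, standard error 0.06, DESeq2 adjusted p = 0.983). Of the ether lipid enzymes, GNPAT and AGPS take the first 2 steps in the peroxisome and FAR1 supplies the fatty alcohol. Gnpat (ENSMUSG00000031985) had 1426, 1350, 1293 and 1279 in L192P and 1414, 1450, 1477 and 1462 in WT. L192P replicate 1 was inside the WT range and the other 3 below it (log2 fold change -0.12, standard error 0.06, DESeq2 adjusted p = 0.581). Agps (ENSMUSG00000042410) had 1355, 1221, 1159 and 1194 in L192P and 1336, 1176, 1338 and 1257 in WT (log2 fold change -0.05, standard error 0.08, DESeq2 adjusted p = 0.947). Far1 (ENSMUSG00000030759) had 2681, 2243, 1914 and 2374 in L192P and 2736, 2126, 2085 and 2352 in WT. In Far1 replicate 1 was the highest library of both genotypes, and the groups overlapped (log2 fold change -0.01, standard error 0.11, DESeq2 adjusted p = 0.995). Catalase, which breaks down hydrogen peroxide, is encoded by Cat (ENSMUSG00000027187), with 837, 1155, 1157 and 1072 normalized counts in L192P and 869, 1087, 1211 and 1078 in WT. Both replicate 1 libraries were the lowest (log2 fold change -0.01, standard error 0.12, DESeq2 adjusted p = 0.998).

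Another 57 peroxisomal genes from a list of 58 were in the table and 51 had an adjusted p. Of these 51, 0 were called by DESeq2, edgeR or limma-voom, and 5 had an unadjusted p under 0.05 in DESeq2, 3 lower and 2 higher. The 5 were looked up after their values were seen. Trim37, Prdx5 and Nudt19 had log2 fold changes of -0.13, -0.13 and -0.12 and Idh1 and Far2 of 0.18 and 0.24, with DESeq2 adjusted p-values between 0.298 and 0.48. Trim37, a ubiquitin ligase, was called lower with the replicate 1 libraries left out and the replicate number as a block. The median log2 fold change of the 51 was -0.024, with 33 below 0 and 18 above.

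Some members stood apart by replicate number, as the plot of each library's deviation shows. For 8 of the 35 genes both replicate 1 libraries were below the other 6, and for 2 they were above, beside 9.89% and 8.86% of all tested genes. The split is one of libraries, was seen in the data and is not a group of the study. The 8 were Crot, Cat, Hsd17b4, Pex6, Abcd3, Scp2, Pex11a and Pxmp2. Crot, the carnitine octanoyltransferase, had 583 to 590.1 normalized counts in the replicate 1 libraries and 733 to 914 in the rest. Cat had 837 to 869 and 1072 to 1211, and Hsd17b4 1377 to 1418 and 1671 to 1751. The 2 above were Far1, at 2681 to 2736 and 1914 to 2374, and Pex7. Pex19 had no such difference, 0.02 (log2) between L192P replicate 1 and the mean of L192P replicates 2 to 4 and -0.01 in WT. Over the members the median log2 difference between replicate 1 and the other libraries was -0.01, and over all tested genes 0.0041.

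Marker lists moved with the same split. Astrocyte markers summed to 33932 to 39102 normalized counts in the replicate 1 libraries and 49228 to 55040 in the other 6, with 6 of 6 markers below in both. Oligodendrocyte markers summed to 88729 to 90459 and 101634 to 128943 (6 of 7 below), microglial markers to 3180.2 to 3301 and 4078 to 5671 (5 of 5), and endothelial markers to 249 to 313 and 500 to 962 (4 of 4). Excitatory neuron markers summed to 80972 to 81009 and 82826 to 101254 (1 of 6 below), whereas the sums of GABAergic neuron markers, at 23284 to 23720 and 20362 to 26095, overlapped. In all, the summed level was below in both replicate 1 libraries for 7 of the 14 lists and above for 0. The part of these markers in the members' difference was not tested.

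**Figure D3:**
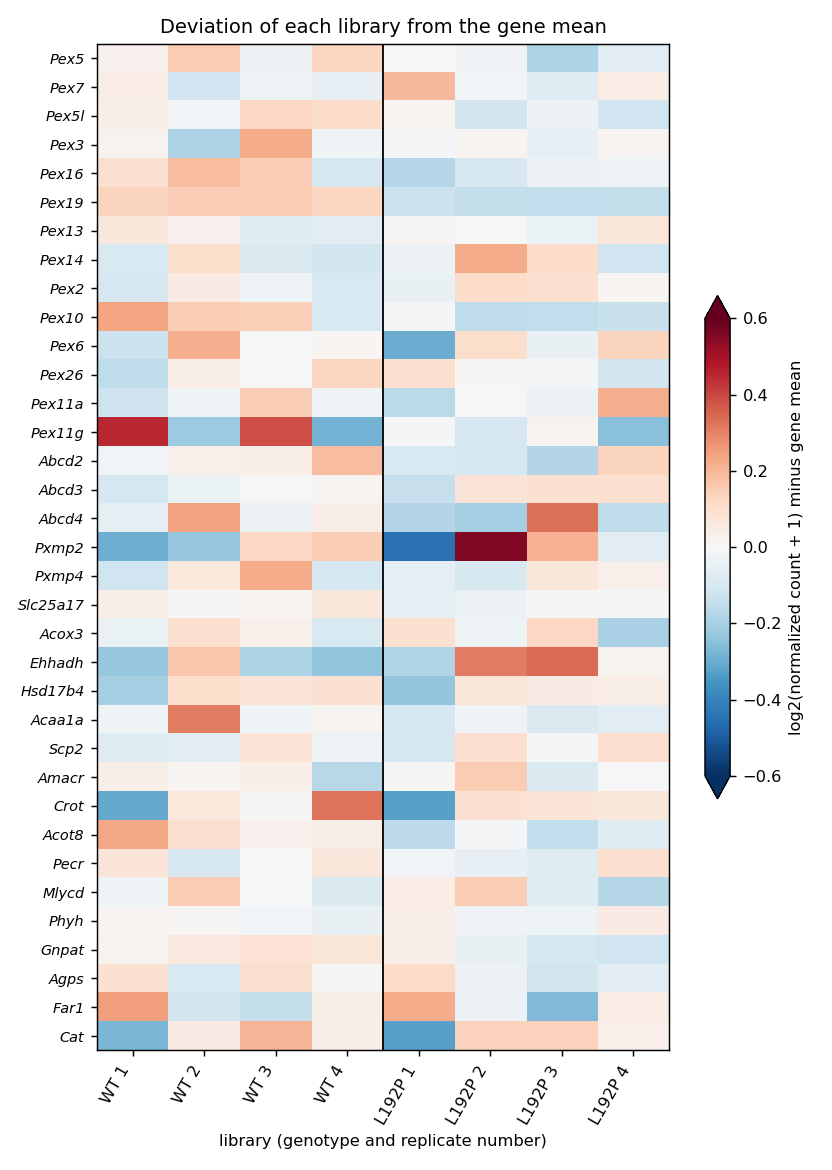
Deviation of each library (columns) from the mean of the gene (rows), as log2 of the normalized count plus 1, with red above and blue below the gene's mean. WT libraries are left of the line and L192P libraries right of it, Pex19 changes color at the line, and Crot, Cat and Hsd17b4 are blue in the replicate 1 columns of both genotypes.

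**Figure D4:**
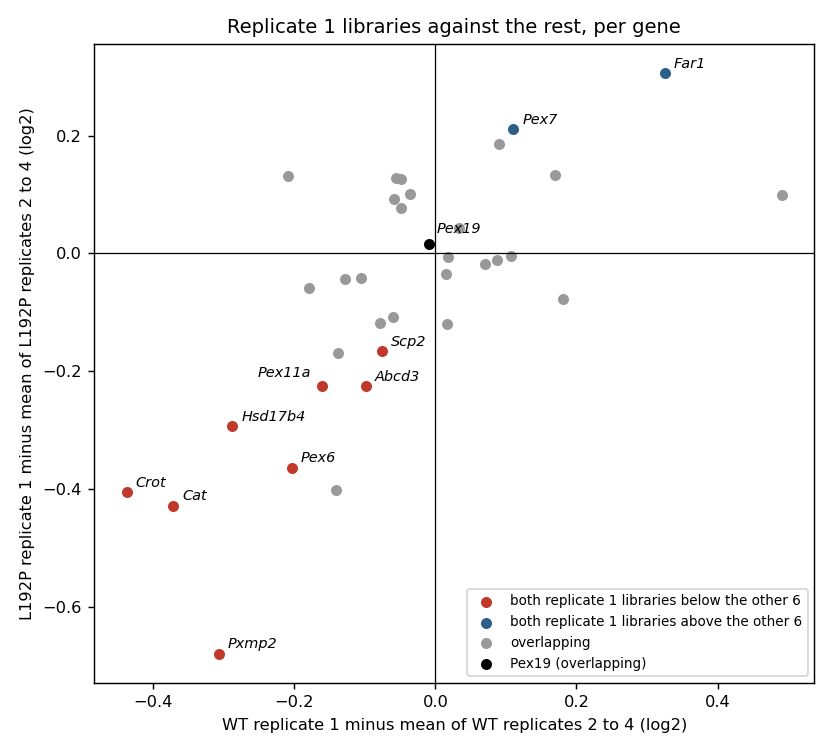
Log2 difference between replicate 1 and the mean of replicates 2 to 4 for each member, WT on the horizontal and L192P on the vertical axis. The 8 genes in red and 2 in blue are those for which both replicate 1 libraries lie outside the range of the other 6, and Pex19 lies near 0 on both axes.

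To compare levels between genes, counts were divided by exon length and library total (RPKM, counts per kilobase of merged exons, per 1000000 counts of the library). The median over the 35 members was 5.27 RPKM. The highest was Pex5l, at a median of 15.4 RPKM over the 8 libraries (range 14.1 to 16.5), followed by Scp2 at 15.03 (14.6 to 16.5), Phyh at 13.5 (12.8 to 14.3) and Hsd17b4 at 13.0 (10.8 to 13.4). Pex19 was 7th at 11.7 RPKM, between Cat and Abcd3. The lowest were Pex11g at 0.364, Pxmp2 at 0.617 and Pecr at 0.744 RPKM. Most neighbours in this order overlapped in their range over libraries. Separations between neighbours were seen after Scp2, Slc25a17, Pex14 and Abcd4. The order depends on the length used: with the length of the canonical transcript, Phyh was first at 49.9 and Pex19 second at 43.99.

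**Figure D5:**
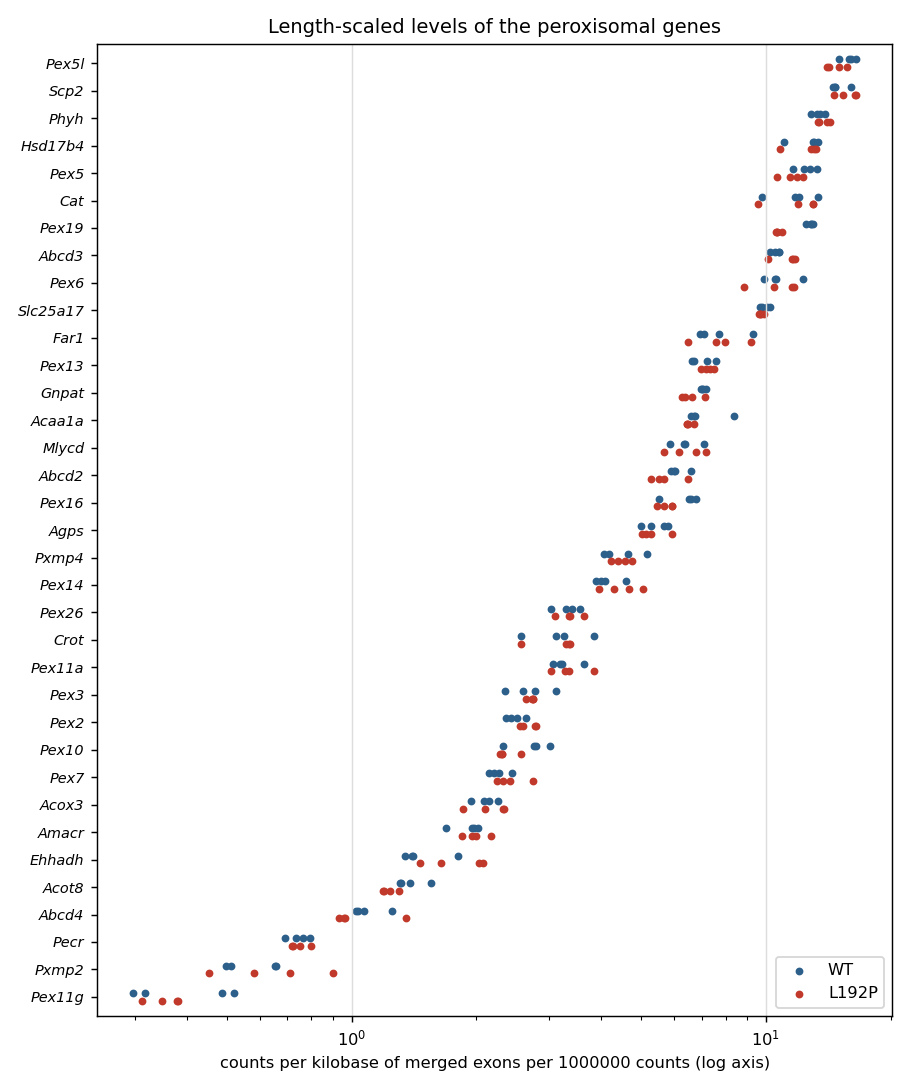
RPKM by merged exon length (log axis) of the 35 members in each WT (blue) and L192P (red) library, ordered by median. Pex5l, Scp2 and Phyh are highest, and Pex11g is lowest at 0.364.

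Seed matches were counted over all members and over other expressed genes. Of the 35, 20 (57.1%) held a match to at least 1 of the seeds, beside 67.3% of the 12555 genes that averaged 50 or more normalized counts and have an annotated 3′ UTR, and the median lengths were 1360 and 1488 bases. With 6 matching bases (2 to 7), 30 of 35 (85.7%) and 87.2% held one. The commonest was miR-128-3p, in 12 members (34.3% and 26.1% of genes). The site of miR-29a-3p was in 5 members (14.3% and 17.5%) and that of miR-92a-3p in 2, Pex10 and Far1 (5.71% and 8.72%). A match of this kind describes the letters and does not show binding. In the RefSeq promoters, from 250 bases before to 50 after the gene start, the repeat AGGTCANAGGTCA on either strand was in 13 of 32851 (0.0396%) and in 0 of 31 promoters of the 27 members found in that table. Its half-site AGGTCA was in 16.3% of promoters and in 4 of the 31, those of Cat, Pex11g, Phyh and Scp2.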

How the data were processed

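Polyadenylated cortical RNA was read as stranded libraries, aligned by the authors with STAR 2.7.9a to GRCm39 and counted per gene with featureCounts 1.5.1. The deposited values used here are raw counts per gene, with no normalization and no pooling. DESeq2 1.40.2 is named in the submitters' processing notes. The strand setting and annotation release are not given in the sources used here. The second deposited table, of normalized values, was not used. DESeq2 1.42.0 in R 4.3.3 was fitted to the whole count table with genotype as the only term, and genes with an adjusted p (Benjamini-Hochberg) under 0.05 were called. The tool and threshold follow the study's methods, which do not state a model formula. Members and lists were chosen with earlier results of these data known. The rule for named genes was to print all libraries for Pex19 and 15 other listed members and for those called or not overlapping between groups, which added Acot8, and the other members by range. Alternatives were edgeR 4.0.16, limma 3.58.1 (voom), other size factors and filters, a replicate block and leaving out libraries. Programs were tested on simulated data. Same-numbered libraries of the 2 genotypes deviated together (correlations 0.233 to 0.628 over 13422 genes, against -0.375 to 0.144 for other pairs). Both the 0.628 and the -0.375 involve replicate 1 libraries. Among replicates 2 to 4 the correlations were 0.233 to 0.381, against -0.0201 to 0.144. Same-numbered pairs were therefore described, and the replicate number was a block in alternative fits. The main DESeq2 fit, edgeR and limma-voom did not use the pairing. Positions, lengths and 3′ UTRs came from GENCODE M39 on GRCm39 (98.8% of gene identifiers found), mature miRNA sequences and promoters from RefSeq tables. Protein sequences were not analysed here.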

Additional observations from a re-analysis of the deposited data

Results flagged for a closer look

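Among 70 groups of 4 libraries (35 members, 2 genotypes), 10 had 1 library far from the other 3, where about 3.5 are expected by chance. The members share the same libraries, so the groups are not independent, and the excess was not tested. In L192P, replicate 1 was low for Abcd3 (1686 normalized counts, the others 1957 to 1980.1), Hsd17b4 (1377, the others 1671 to 1710.4) and Crot (583, the others 767 to 780), and high for Pex10 (277, the others 251 to 255). WT replicate 1 was low for Hsd17b4 too (1418, the others 1713 to 1751). L192P replicate 3 was high for Abcd4 (277, the others 191 to 198). WT replicate 2, the library with the highest total count, was high for Pex14 (785, the others 677 to 688), Ehhadh (138, the others 104 to 108) and Acaa1a (1816, the others 1435 to 1480). WT replicate 4 was low for Amacr (270.4, the others 307 to 312). Pex19 had no such library.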

How the results depend on the processing

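The call of Pex19 as the 1 member lower in L192P was the same in all 18 alternative fits, with a log2 fold change between -0.29 and -0.26 and an adjusted p between 1.36e-05 and 0.0327. The replicate block changed no member's call (Pex19 adjusted p 0.000126) but raised the genes called from 253 (58.1% higher) to 533 (42.8% higher). That count was 53 with edgeR (83.0% higher), 45 with limma-voom (84.4% higher), 500 (47.6% higher) with the 6 libraries of replicates 2 to 4, 572 (229 higher and 343 lower) with those and the block, and 112 (without WT replicate 4) to 496 (without WT replicate 1) with 1 library left out. Marker genes called went from 3 to 0 with limma-voom, 11 with the block, 16 with 6 libraries, 21 with 6 libraries and the block, and 2 to 10 with 1 library left out. Other peroxisomal genes called went from 0 to 1 with 6 libraries and the block, an alternative chosen after seeing the data. The members' median level of 5.27 RPKM was 7.02 by longest and 10.2 by canonical transcript (the latter also chosen later), and their median log2 fold change ran from -0.0492 to -0.0162 with 1 library left out. The cause of these moves was not tested.

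No member other than Pex19 was called in any fit, and the sign of the fold change turned in 49 of 630 values. The log2 fold changes that turned were small in the main fit, except that of Pxmp2 (0.168, and -0.0236 without L192P replicate 2). With limma-voom the log2 values were 0.0059 for Pex3, 0.000304 for Pex26 and -0.002 for Acox3. With TMM size factors it was -0.0041 for Acox3. With total-count size factors they were 0.00709 for Pex3, 0.0188 for Pex26, 0.0091 for Pecr, 0.0029 for Mlycd, 0.0109 for Far1 and 0.0158 for Cat. With 6 libraries they were -0.0458 for Acox3, 0.0089 for Pecr and 0.0030 for Cat, and with 6 libraries and the replicate block -0.0467, 0.0045 and 0.0037. Leaving out 1 library gave ranges of -0.0856 to 0.0591 for Pex3, -0.00246 to 0.0446 for Pex13, -0.102 to 0.0325 for Pex6, -0.0571 to 0.0319 for Pex26, -0.0594 to 0.0697 for Pex11a, -0.0236 to 0.324 for Pxmp2, -0.0804 to 0.0337 for Pxmp4, -0.0363 to 0.0637 for Acox3, -0.107 to 0.0286 for Hsd17b4, -0.0108 to 0.0702 for Amacr, -0.148 to 0.0573 for Crot, -0.0576 to 0.00748 for Pecr, -0.0786 to 0.03 for Mlycd, -0.0958 to 0.075 for Far1 and -0.0944 to 0.0873 for Cat. Pex11g and Pxmp2, with fewest counts, had the least precise fold changes.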
